A study of Homo sapiens with 4 samples.

Results

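The RGS genes (regulators of G-protein signalling) were followed in K562 cells that received the fusion gene RUNX1::ERG or its empty vector. The 10 genes described were RGS1, RGS2, RGS3, RGS6, RGS10, RGS12, RGS14, RGS16, RGS18 and RGS19. They were found by matching the NCBI gene number of each row to its symbol and were 10 of the 25702 genes in the count tables and 10 of the 21 genes there whose symbol begins with RGS.

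K562 is an established human myeloid leukemia line that carries BCR::ABL1 and has erythroid and megakaryocytic features, and all 4 libraries come from it. Cells were transfected by nucleofection with a LeGO-iG2 plasmid that either was empty or carried RUNX1::ERG, a fusion found in acute myeloid leukemia that joins the DNA-binding parts of RUNX1 and ERG, and no further treatment was given to either group. Each group had 2 biological replicates. The transfection was transient, GFP is encoded by the plasmid in both groups, sorting of the cells is not described, and a time from transfection to harvest is stated for the study's expression and functional assays in general, without naming these libraries.

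RGS proteins shorten the signal of G-protein-coupled receptors. A receptor loads the alpha subunit of a heterotrimeric G protein with GTP, the alpha subunit and the beta-gamma pair then act on enzymes and channels, and an RGS protein speeds the hydrolysis of GTP that ends this state. The family is divided by sequence into the small R4 proteins (RGS1, RGS2, RGS3, RGS16 and RGS18 here), the R12 proteins (RGS10, RGS12 and RGS14), the RZ protein RGS19 and the R7 protein RGS6. In blood, RGS18 and RGS10 are known from megakaryocytes and platelets, where they limit signalling by platelet agonists, and RGS1 is known from lymphocytes.

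The library totals were 59695387 to 82352144 counts, and the 2 libraries of a group differed by far more than counting error. With edgeR's quasi-likelihood test and Benjamini-Hochberg adjustment, 737 of 15394 tested genes passed an adjusted p of 0.05, which is 4.79%. Of all tested genes, 3.64% were higher and 1.15% lower with RUNX1::ERG, and the median log2 fold change of all tested genes was -0.0017. ERG, a part of the fusion, was at 0.066 and 0.057 normalised CPM (CPM, the counts of a gene relative to the library total, here after TMM scaling) with the empty vector and at 954 and 379 with RUNX1::ERG, so the fusion transcript was more abundant in replicate 1. RUNX1 was at 78.6 and 49.0 against 786 and 400 normalised CPM. The 8 markers of K562, globins and other erythroid genes, were all tested, with a summed level of 11890 and 12460 normalised CPM without and 14140 and 13070 with the fusion. By edgeR, 1 of them was called higher, TAL1 (log2 fold change 0.68, adjusted p = 0.025), and it was not called without RUNX1::ERG replicate 1 (adjusted p = 0.145) or 2 (adjusted p = 0.054). The globin HBZ had -0.59 (adjusted p = 0.05003 by edgeR, 0.022 by DESeq2 and 0.047 by limma voom).

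RGS18 and RGS10 rose in cells with RUNX1::ERG, RGS18 from near the limit of detection and RGS10 from an already high level to 1.89 times that level. RGS12, RGS14 and RGS19 were measured at usable depth and did not pass the test. RGS2, with only 56 to 119 counts in a library, had a higher mean with the fusion and did not pass it. RGS16 and RGS3 had lower means with the fusion and did not pass it either, and RGS1 and RGS6 were practically without counts. In all, 2 of the 8 tested members were called higher and 0 lower, against 3.64% and 1.15% of all tested genes. At an unadjusted p under 0.05 there were 4 members, among them RGS3 and RGS16 in the lower direction, beside 18.0% of all tested genes in either direction and 7.26% in the lower one. DESeq2 called 2 members higher and 1 lower, the lower one being RGS3, beside 4.86% and 2.43% of the genes to which it gave an adjusted p. The calls by limma voom were 2 higher and 0 lower, beside 3.48% and 0.994%. The median log2 fold change of the 8 tested members was 0.08, beside -0.0017 for all genes. RGS18 and RGS16 passed the filter on low counts through the group where they were high, so the 8 are not a neutral sample of the 10.

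**Figure D1:**
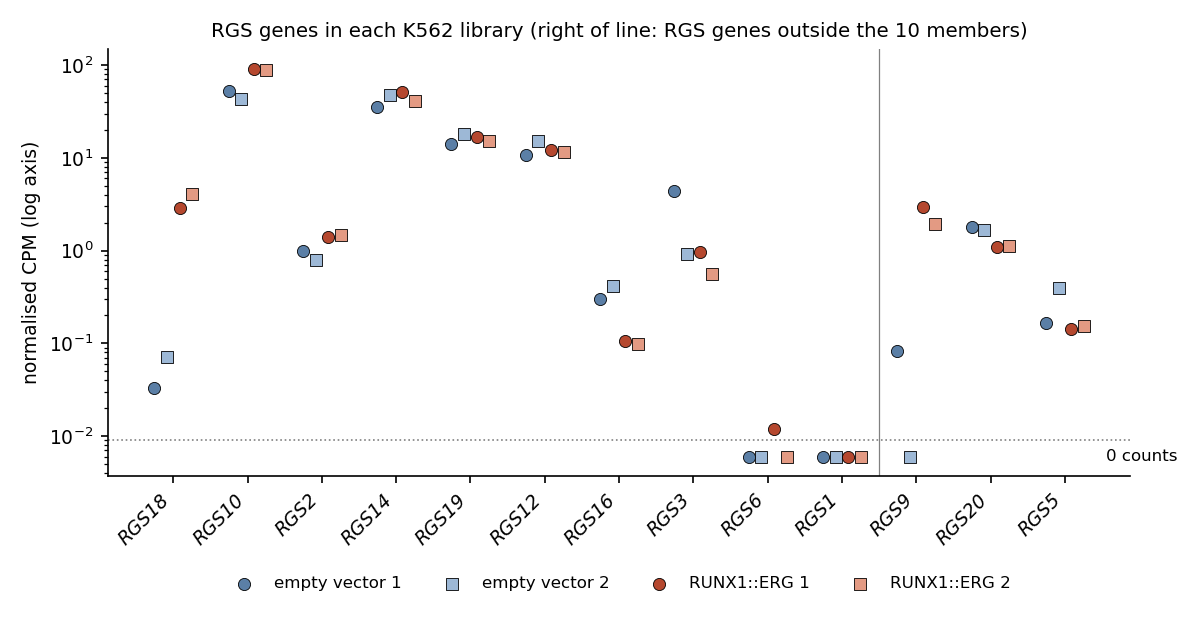
Normalised CPM on a log axis of the 10 RGS members and of the 3 further RGS genes with over 10 counts in a library, 1 point for each library (circles replicate 1, squares replicate 2; blue empty vector, red RUNX1::ERG). Points under the dotted line have 0 counts. RGS18 moved from 0.0332 and 0.0709 to 2.89 and 4.03, RGS10 and RGS14 stood highest in every library, and RGS3 was set apart by its empty vector replicate 1 at 4.38.

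RGS18 is an R4 protein of the megakaryocytic lineage. The gene lies on chromosome 1 (GRCh37, chr1:192127592-192154945, plus strand). It had 2 and 5 counts with the empty vector and 244 and 290 counts with RUNX1::ERG, or 0.0332, 0.0709, 2.89 and 4.03 normalised CPM in the same order. Both libraries with the fusion were far above both without it. The mean level went from 0.0521 ± 0.0267 to 3.46 ± 0.806 normalised CPM (SD, n = 2 each), with a log2 fold change of 5.98 (SE 0.52, adjusted p = 0.00013 by edgeR). With so few counts in the control the size is loosely held. The ratio of the summed counts was 63.9. Its exact 95% counting interval was 30.8 to 159.6, which does not include the spread between replicates. If both mates of a read pair were counted, which the sources do not state, the halved counts give 21.6 to 206.6. RGS18 ranked 45th by log2 fold change among the 560 genes that rose. The call held in each of the 11 alternative fits in which RGS18 was tested, with log2 fold changes from 5.57 to 6.63, and a filter of at least 10 counts in every library removes the gene. As these are bulk cells, a higher level per cell and a larger share of cells with the transcript cannot be told apart. The annotation holds a long noncoding RNA on the opposite strand that shares 153 exon bases with RGS18, and the strand setting of the counting is not stated.

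The 250 bases before the start of the gene are shown for RGS18 and RGS10, which rose, and for RGS1 and RGS2, which stand in one cluster with RGS18 and were not called. They come from RefSeq (GRCh38.p14) and are written 5′ to 3′ on the strand of the gene, with capitals where a searched word occurs. The words were CGGAAG and AGGAAG, the core bound by ETS factors such as ERG, TGTGGT and TGCGGT, the core bound by RUNX factors, and AGATAA, bound by GATA factors. Both strands were read, and no word overlaps another in these windows.
RGS18 (chr1:192158212-192158461, plus strand): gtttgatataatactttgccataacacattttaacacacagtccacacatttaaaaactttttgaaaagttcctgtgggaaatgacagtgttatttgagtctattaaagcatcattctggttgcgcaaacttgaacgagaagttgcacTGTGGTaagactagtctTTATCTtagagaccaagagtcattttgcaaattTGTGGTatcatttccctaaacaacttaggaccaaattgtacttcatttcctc
RGS1 (chr1:192575523-192575772, plus strand): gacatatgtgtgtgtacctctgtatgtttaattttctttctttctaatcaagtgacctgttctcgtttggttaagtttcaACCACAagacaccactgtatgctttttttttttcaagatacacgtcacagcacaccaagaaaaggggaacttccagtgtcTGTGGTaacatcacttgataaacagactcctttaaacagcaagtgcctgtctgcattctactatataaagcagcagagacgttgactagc
RGS2 (chr1:192808789-192809038, plus strand): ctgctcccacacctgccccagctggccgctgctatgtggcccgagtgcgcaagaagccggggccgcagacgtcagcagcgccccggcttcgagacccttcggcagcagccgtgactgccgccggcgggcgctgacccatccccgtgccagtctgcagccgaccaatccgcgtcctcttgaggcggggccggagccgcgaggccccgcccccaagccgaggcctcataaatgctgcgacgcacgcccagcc
RGS10 (chr10:119542720-119542969, minus strand, the first of the 2 starts listed): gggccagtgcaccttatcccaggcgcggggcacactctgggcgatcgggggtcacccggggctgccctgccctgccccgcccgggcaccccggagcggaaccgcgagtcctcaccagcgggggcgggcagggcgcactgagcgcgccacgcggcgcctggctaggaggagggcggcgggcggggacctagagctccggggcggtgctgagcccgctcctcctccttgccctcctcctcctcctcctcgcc

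The RGS18 window held TGTGGT starting 102 and 52 bases before the gene start and AGATAA, read as TTATCT, 85 bases before it. Neither ETS word was in it. The shorter GGAA was not searched as a word. It does occur in the RGS18 window on both strands, as it does in that of RGS1, and it is also in the printed RGS10 window. RGS1 also held the RUNX word at 2 places, 170 bases before the start as ACCACA and 90 bases before it as TGTGGT, and had 0 counts in all 4 libraries. The windows of RGS2 and both windows of RGS10 held none of the 5 words, and neither did those of RGS16 and RGS9. Other members that edgeR did not call did hold some of them. The window of RGS14 and a window of RGS6 held both ETS words and the same RUNX word as RGS18. ETS words also occurred in windows of RGS3, RGS12 and RGS19. Among the further RGS genes, RGS21 and RGS8 held a RUNX word, RGS4 and RGS5 an ETS word and RGS13 the GATA word. TGTGGT was present in 9.55% of 23037 promoter windows of this length, and 0.786% held it at least 2 times. The other words were more or about as common, with CGGAAG in 20.0%, AGGAAG in 28.7%, TGCGGT in 6.79% and AGATAA in 7.16%. The GC content of the windows was 34.8% for RGS18, 39.2% for RGS1, 72.8% for RGS2 and 77.2% for RGS10. A word match describes the letters of the window, and binding was not measured here.

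RGS18 is the first of 5 RGS genes that stand in a row on chromosome 1, all on the plus strand and within 653.8 kb. RGS21 starts 158.5 kb after the start of RGS18, RGS1 417.3 kb, RGS13 477.7 kb and RGS2 650.6 kb after it. No other protein-coding gene of the annotation lay within 500 kb of RGS18. RGS21, RGS1 and RGS13 had at most 2 counts in any library and were not tested. A rise to counts like those of RGS18 was not seen in them, and changes within so few counts were not detectable at this depth. Where a gene has 0 counts, up to 3 remain possible from counting error alone, or 0.0364 to 0.0503 CPM depending on the library. The 4 tested genes within 500 kb of RGS2 were UCHL5, RO60, GLRX2 and CDC73, which lie outside the row of RGS genes, with log2 fold changes of -0.28, 0.30, 0.00 and 0.11, and none passed the test (0 at an unadjusted p under 0.05, 0 by DESeq2 and 0 by limma voom).

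**Figure D2:**
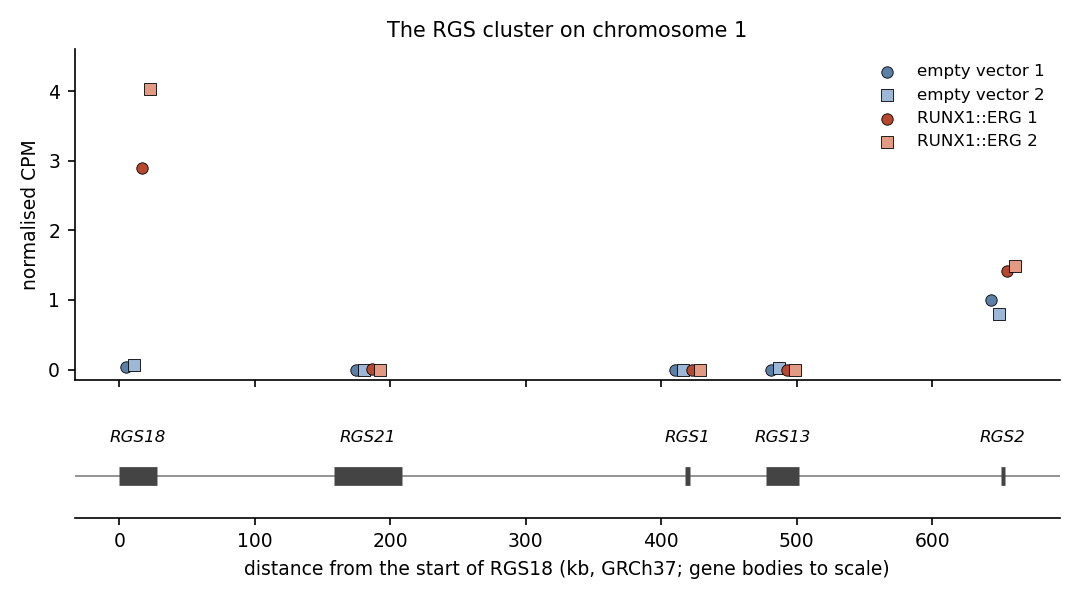
The RGS cluster on chromosome 1. Upper panel: normalised CPM of each gene in the 4 libraries (circles replicate 1, squares replicate 2; blue empty vector, red RUNX1::ERG). Lower panel: the gene bodies to scale as distance in kb from the start of RGS18. The rise at RGS18 stood at one end, the 3 genes in the middle stayed at 2 counts or fewer, and RGS2 at the far end was at 0.996 and 0.794 against 1.41 and 1.49.

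RGS2, at the far end of the cluster (GRCh37, chr1:192778169-192781405), is an R4 protein known for its preference for the Gq alpha subunits. Its counts were 60 and 56 with the empty vector and 119 and 107 with RUNX1::ERG, or 0.996, 0.794, 1.41 and 1.49 normalised CPM. Both libraries with the fusion were above both without it, as were 25.1% of all tested genes. The log2 fold change of 0.70 (SE 0.39) had an adjusted p of 0.404 by edgeR, and at this depth an increase of that size was not told from the spread between replicates.

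RGS10 is the smallest R12 protein, little more than the RGS domain itself, and it acts on the Gi family. The gene lies on chromosome 10 (GRCh37, chr10:121259329-121302231, minus strand). Its levels were 52.5 and 43.1 normalised CPM with the empty vector and 91.6 and 89.1 with RUNX1::ERG, from 3042 to 7725 counts in a library. The groups did not overlap, and the 2 libraries with the fusion lay closer together than the 2 without it. The mean went from 47.8 ± 6.62 to 90.4 ± 1.76 normalised CPM (SD, n = 2 each), with a log2 fold change of 0.92 (SE 0.17, adjusted p = 0.0114 by edgeR). RGS10 stayed past the threshold in each of the 12 alternative fits, where its log2 fold change ran from 0.78 to 1.06 and its adjusted p from 5.7e-05 to 0.045. It ranked 473rd by log2 fold change among the 560 genes that rose, so its change was modest among them. Of the 11 tested genes within 500 kb of RGS10, 0 passed the test (1 at an unadjusted p under 0.05, 0 by DESeq2 and 0 by limma voom). The nearest were TIAL1 at 29.1 kb with a log2 fold change of -0.15 and the receptor kinase GRK5 at 40.1 kb with 0.13.

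The other R12 members did not follow RGS10. RGS14, a scaffold that also binds Ras and Rap proteins and holds inactive Gi alpha through a GoLoco motif, was at 35.6 and 47.1 normalised CPM with the empty vector and at 50.8 and 40.9 with RUNX1::ERG. The groups overlapped, with a log2 fold change of 0.15 (SE 0.20, adjusted p = 0.772 by edgeR). RGS12, a larger scaffold with a PDZ domain, was at 10.9 and 15.1 against 12.1 and 11.6 normalised CPM. Here too the groups overlapped, and the log2 fold change was -0.13 (SE 0.23, adjusted p = 0.833 by edgeR). The sign of both values turned when a single library was left out.

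RGS19, the RZ member first described as a partner of a Gi alpha subunit, was the least changed of the tested members. Its levels were 13.9 and 18.2 normalised CPM with the empty vector and 16.9 and 15.3 with RUNX1::ERG. The libraries with the fusion lay between the 2 without it, and the log2 fold change was 0.00 (SE 0.21, adjusted p = 0.996 by edgeR).

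RGS16 and RGS3, both R4 proteins that act on Gi and Gq alpha subunits, had lower means with the fusion. RGS16 had 18 and 29 counts with the empty vector and 9 and 7 with RUNX1::ERG, or 0.299, 0.411, 0.107 and 0.0974 normalised CPM. Both libraries with the fusion were below both without it, as were 22.1% of all tested genes, and the log2 fold change of -1.78 (SE 0.66) had an adjusted p of 0.180 by edgeR. The ratio of the summed counts, empty vector over RUNX1::ERG, was 3.51 with an exact 95% counting interval of 1.95 to 6.63, which does not include the spread between replicates.

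RGS3 was at 4.38 and 0.922 normalised CPM with the empty vector and at 0.961 and 0.556 with RUNX1::ERG. A single library, empty vector replicate 1 with 264 counts, stood above the other 3, which had 65, 81 and 40 counts. The log2 fold change of -1.79 (SE 0.62, adjusted p = 0.148 by edgeR) rested on that library. Without it the value was -0.28 (adjusted p = 0.862), and without empty vector replicate 2 it was -2.52 (adjusted p = 4.3e-08). DESeq2 called RGS3 lower with an adjusted p of 0.041. The groups overlapped, as the RUNX1::ERG replicate 1 lay above empty vector replicate 2. RGS3 is a long gene with several start sites and isoforms, which a count per gene does not separate.

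RGS6, an R7 protein, had 1 count in RUNX1::ERG replicate 1 and 0 in the other 3 libraries, and RGS1 had 0 counts in all 4. Neither was tested.

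**Figure D3:**
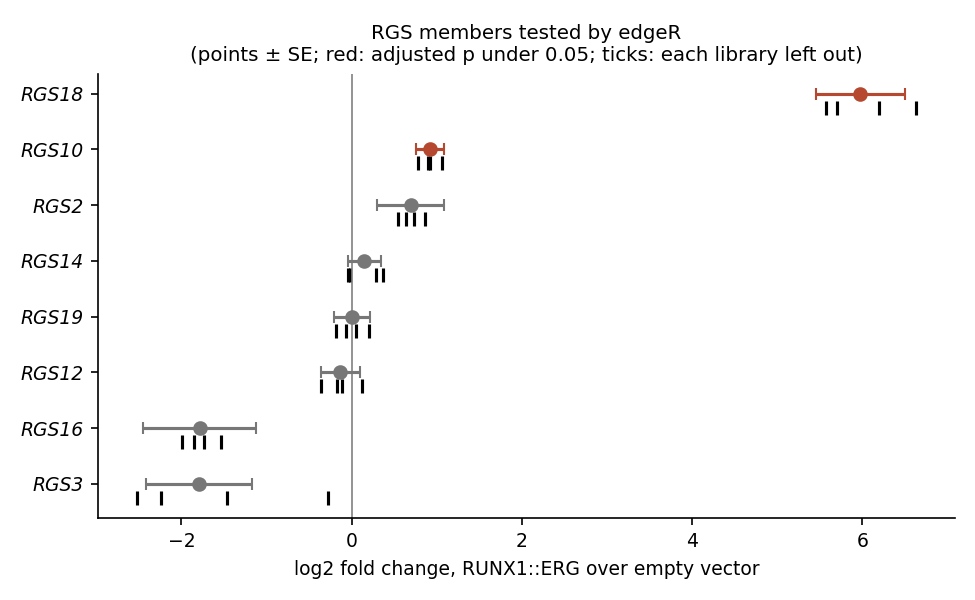
Log2 fold change, RUNX1::ERG over empty vector, of the 8 tested RGS members by edgeR. Points are the values with all 4 libraries, bars are ± SE, red marks an adjusted p under 0.05, and the black ticks below each point are the values with 1 library left out. RGS18 at 5.98 and RGS10 at 0.92 stayed above 0 throughout, and RGS3 ran from -2.52 to -0.28.

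Compared per length, K562 cells carried mostly RGS10 transcript among these genes in both groups. In normalised CPM per kb of exon, the mean levels with the empty vector were 37.5 for RGS10, 11.2 for RGS14, 7.92 for RGS19, 0.943 for RGS12, 0.429 for RGS2, 0.202 for RGS3, 0.147 for RGS16 and 0.0186 for RGS18. In this order the ranges of RGS3 and RGS16 overlapped between libraries and those of the other neighbours did not. With RUNX1::ERG the means were 70.9 for RGS10, 12.4 for RGS14 and 7.94 for RGS19, then 1.24 for RGS18, 0.860 for RGS12, 0.694 for RGS2, 0.0577 for RGS3 and 0.0424 for RGS16. RGS18 thus moved from the last of the 8 to the fourth place, or to the fifth behind RGS12 (1.62 and 2.15) where the length was that of the longest transcript instead of all exons. RGS3 and RGS16 were again the pair whose ranges overlapped.

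The summed per-kb level of the 10 genes was 59.4 and 57.3 with the empty vector and 96.7 and 91.6 with RUNX1::ERG. Most of the difference was RGS10, whose share of the sum was 69.4% and 59.1% without the fusion and 74.4% and 76.4% with it. The shares of RGS14 and RGS19, whose own levels did not pass the test, were 19.2% and 13.6% on average with the empty vector and 13.1% and 8.43% with RUNX1::ERG. RGS18 reached 1.07% and 1.57% of the sum with the fusion, from 0.0200% and 0.0442%. The R12 genes summed to 51.6 and 47.7 per kb against 86.5 and 81.9, and the R4 genes to 0.946 and 0.647 against 1.83 and 2.24. RGS19 alone, as the RZ gene, gave 6.88 and 8.97 against 8.33 and 7.55.

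**Figure D4:**
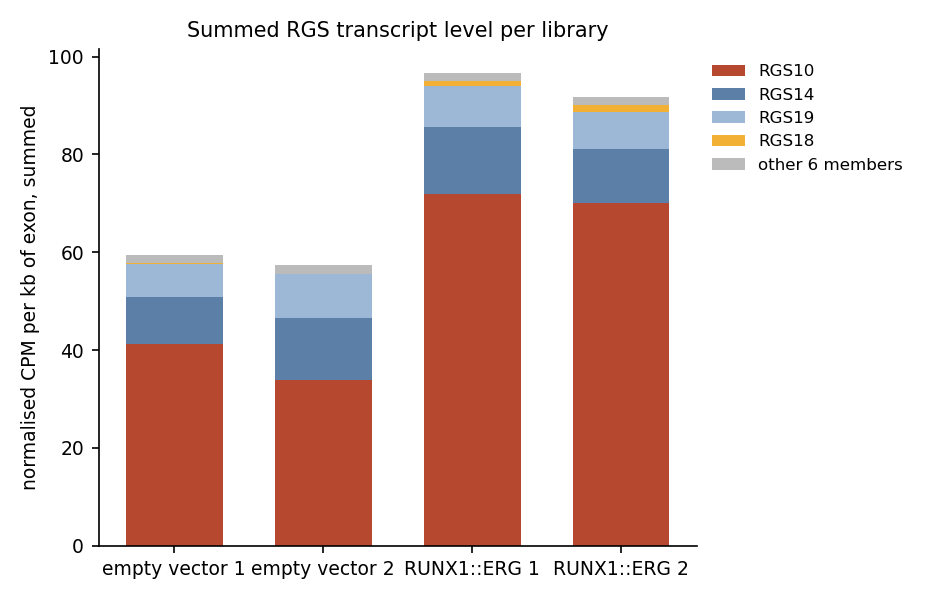
Summed level of the 10 RGS genes in each library, in normalised CPM per kb of exon, stacked by gene. The bars reach 59.4 and 57.3 with the empty vector and 96.7 and 91.6 with RUNX1::ERG, and RGS10 takes 59.1% to 76.4% of each.

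Of the 11 RGS genes outside the 10, 3 were tested and 1 was called higher, beside 3.64% of all tested genes. In the remaining 8 no library held more than 6 counts. RGS9, an R7 protein best known from photoreceptors and the striatum (GRCh37, chr17:63096930-63223821), had 5 and 0 counts with the empty vector and 250 and 140 with RUNX1::ERG, or 0.0830, 0, 2.97 and 1.95 normalised CPM. The groups were far apart, with a log2 fold change of 5.92 (SE 0.78, adjusted p = 0.0018 by edgeR). The ratio of summed counts was 65.3 (exact 95% counting interval 27.7 to 202.2, or 22.3 to 678.7 on halved counts). RGS9 also had a spread between replicates, which these intervals do not include. It was called in each fit with 1 library left out, at 4.86 or more, and the highest value, 10.54 without empty vector replicate 1, is set against a single library at 0 counts and is no bound. RGS9 stood next to RGS18 in the ranking of the genes that rose, at place 46. Like RGS18, it passed the filter on low counts through the libraries with the fusion. RGS20, an RZ gene on chromosome 8, was at 1.78 and 1.66 against 1.10 and 1.13 normalised CPM, a log2 fold change of -0.62 (SE 0.36, adjusted p = 0.425 by edgeR). RGS5, the R4 gene of pericytes, was at 0.166 and 0.397 against 0.142 and 0.153 normalised CPM (log2 fold change -0.94, SE 0.70, adjusted p = 0.552 by edgeR).

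RGS proteins work with partners that anchor or stabilise them, and of 8 such genes 7 were tested and 0 called by edgeR (1 at an unadjusted p under 0.05, 1 by DESeq2 and 0 by limma voom). The gene behind these counts was GNB5, the beta subunit that R7 proteins such as RGS9 need for their stability, at 1.40 and 1.74 normalised CPM with the empty vector and 3.72 and 3.28 with RUNX1::ERG. Its log2 fold change was 1.16 (SE 0.32), with an adjusted p of 0.0705 by edgeR and 0.026 by DESeq2. RGS9BP, the membrane anchor of RGS9, had a log2 fold change of 0.23 (adjusted p = 0.823 by edgeR). PPP1R9B and PTPN6, the spinophilin and SHP-1 that bind RGS10 and RGS18 in platelets, had values of 0.12 and 0.60 (adjusted p = 0.801 and 0.382 by edgeR), and GIPC1, the partner of RGS19, had 0.13 (adjusted p = 0.764). RGS9BP, PPP1R9B, PTPN6 and GIPC1 were named after their values were seen.

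Of 32 genes for G protein subunits, 24 were tested, 3 rose and 0 fell, beside 3.64% and 1.15% of all tested genes. The median log2 fold change was 0.18. At an unadjusted p under 0.05 by edgeR there were 6, of which 0 were lower, beside 18.0% and 7.26% of all tested genes. GNAI2, the Gi alpha subunit that is abundant in blood cells and a substrate of RGS10 and RGS18, was at 66.6 and 71.7 normalised CPM with the empty vector and at 119 and 104 with RUNX1::ERG (log2 fold change 0.69, SE 0.16, adjusted p = 0.035 by edgeR). The gamma subunit genes GNG8 and GNG11 rose by 2.95 and 1.77 on the log2 scale (adjusted p = 0.0025 and 0.049 by edgeR). GNG11, a gamma subunit known from platelets, went from 0.996 and 0.425 to 2.52 and 2.32 normalised CPM. Without RUNX1::ERG replicate 1, GNG8 was still called (2.76) and GNAI2 (0.59) and GNG11 (1.71) were not, with adjusted p = 0.205 and 0.197 by edgeR. Leaving out empty vector replicate 1 also ended the call of GNAI2 (adjusted p = 0.076), and leaving out empty vector replicate 2 that of GNG11 (adjusted p = 0.052). The widely used GNAS and GNAQ had log2 fold changes of -0.02 and 0.13 (adjusted p = 0.963 and 0.791 by edgeR), named after their values were seen.

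Of 19 genes for enzymes that G proteins act on, 14 were tested, 3 rose and 0 fell, beside 3.64% and 1.15% of all tested genes. The median was 0.24. At an unadjusted p under 0.05 by edgeR there were 9, of which 3 were lower, beside 18.0% and 7.26% of all tested genes. The lower ones were ARHGEF1 and the adenylyl cyclase genes ADCY7 and ADCY3, at -0.40, -0.42 and -0.36 (adjusted p = 0.261, 0.175 and 0.276 by edgeR). ADCY7 was at 154 and 177 normalised CPM with the empty vector and 120 and 127 with the fusion. Of the 3 that rose, ADCY6, an adenylyl cyclase that Gi inhibits, was at 2.01 and 1.43 normalised CPM with the empty vector and 11.8 and 8.79 with the fusion (log2 fold change 2.58, SE 0.30, adjusted p = 0.00076 by edgeR). PLCB2, a phospholipase C driven by Gq and by beta-gamma, was at 5.15 and 4.38 against 24.2 and 14.2 (2.02, SE 0.28, adjusted p = 0.0025). PIK3CG, the phosphoinositide 3-kinase that beta-gamma activates in blood cells, was at 36.6 and 35.8 against 76.6 and 79.7 (1.11, SE 0.16, adjusted p = 0.0030). Each of the 3 was called in every fit with 1 library left out.

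Other proteins that modulate the cycle, such as receptor kinases, arrestins and GoLoco proteins, numbered 18 genes, of which 17 were tested and 0 called by edgeR (1 at an unadjusted p under 0.05, 1 by DESeq2 and 0 by limma voom). The gene called by DESeq2 was SNX25, a sorting nexin with an RGS-like domain, at 14.8 and 14.7 against 7.92 and 10.3 normalised CPM (log2 fold change -0.70, SE 0.22, adjusted p = 0.113 by edgeR). The median of the 17 was 0.05. GPSM3, the modulator not tested, had 4 and 3 counts with the empty vector and 11 and 58 with the fusion. With no filter on low counts it was called higher (log2 fold change 3.06, adjusted p = 0.0067 by edgeR).

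Of 35 receptor genes of blood cells, 22 were tested, 4 rose and 1 fell, beside 3.64% and 1.15% of all tested genes. The median was 0.27. At an unadjusted p under 0.05 by edgeR there were 13, of which 4 were lower, beside 18.0% and 7.26% of all tested genes. F2RL2 and F2R, the thrombin receptors PAR3 and PAR1, rose by 5.36 and 1.48 on the log2 scale (adjusted p = 5.5e-06 and 0.00076 by edgeR). F2RL2 was at 0.531 and 0.369 normalised CPM with the empty vector and at 19.3 and 17.5 with RUNX1::ERG, and F2R at 30.4 and 36.1 against 87.9 and 97.9. The prostacyclin receptor PTGIR, which acts through Gs, was at 1.35 and 0.893 against 8.10 and 3.70 (log2 fold change 2.40, adjusted p = 0.0090), and the adhesion receptor ADGRG1 at 0.664 and 0.681 against 12.5 and 9.35 (4.01, adjusted p = 5.8e-05). S1PR3, a sphingosine-1-phosphate receptor, was at 2.77 and 4.72 against 0.866 and 1.52 (-1.66, adjusted p = 0.043). Without RUNX1::ERG replicate 1, 3 of these 5 were still called, and PTGIR (1.73, adjusted p = 0.098 by edgeR) and S1PR3 (-1.31, adjusted p = 0.272) were not.

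**Figure D5:**
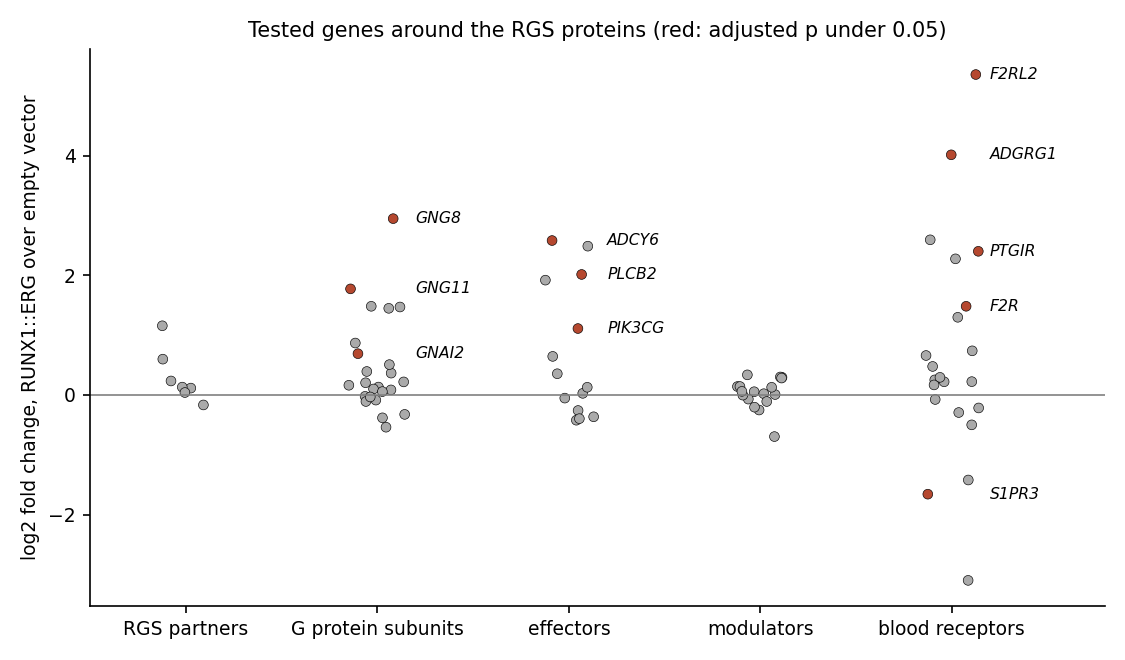
Log2 fold change, RUNX1::ERG over empty vector, of each tested gene in 5 lists around the RGS proteins, 1 point for each gene, spread sideways for legibility. Red points passed an adjusted p of 0.05 by edgeR and carry their names. 3 subunit genes, 3 effector genes and 4 receptor genes rose, and the receptor S1PR3 fell.

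Some markers of the megakaryocytic lineage rose with RUNX1::ERG, as RGS18 did, and 2 groups of 2 libraries cannot show a link between them. Of 20 such genes 14 were tested, 8 rose and 0 fell, beside 3.64% higher and 1.15% lower of all tested genes. PF4, PPBP and VWF had at most 8 counts in an empty vector library. They passed the filter on low counts through the libraries with the fusion, so the 14 are not a neutral sample of the 20. The summed level of the 20 was 422 and 439 normalised CPM with the empty vector and 876 and 793 with RUNX1::ERG. ITGA2B, the integrin alpha IIb, was at 11.97 and 8.92 against 229 and 161 (log2 fold change 4.22, SE 0.24, adjusted p = 5.5e-06 by edgeR). GP1BB was at 0 counts in all libraries, and GP9 and TREML1, further defining genes of late megakaryocytes, had at most 2 counts. RGS18 was higher in RUNX1::ERG replicate 2, while ITGA2B and ERG were higher in replicate 1, and 2 libraries cannot show a relation. Of 6 lymphoid markers 3 were tested and 0 called by edgeR (1 at an unadjusted p under 0.05), with a summed level of 34.9 and 36.2 against 22.6 and 25.0, nearly all of it CD3D. Of 6 monocyte and granulocyte markers 4 were tested, 2, CD14 and LYZ, rose and 0 fell, beside 3.64% and 1.15% of all tested genes. The summed level of the 6 was 8.80 and 11.0 against 23.0 and 21.1. FCGR3B went the other way without passing the test, at 1.03 and 0.596 against 0.415 and 0.181 (log2 fold change -1.43, adjusted p = 0.224 by edgeR). Without RUNX1::ERG replicate 1, LYZ was not called (adjusted p = 0.071 by edgeR). Of 6 stroma and epithelium markers 5 were tested, 1, COL1A1, rose and 0 fell, beside the same shares of all tested genes. EPCAM was lower without passing the test, at 75.4 and 81.2 against 55.5 and 58.2 (log2 fold change -0.46, adjusted p = 0.137 by edgeR). The part of these markers in the RGS values was not tested.

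Genes beside the RGS genes were called about as often as genes at large. Of 112 protein-coding genes within 500 kb of a member, 90 were tested and 4 called, which is 4.44% beside the 4.79% of all tested genes. GLUL, glutamine synthetase, 206.4 kb from RGS16, was at 1562 and 1151 normalised CPM with the empty vector and at 638.5 and 725.1 with RUNX1::ERG (log2 fold change -0.99, adjusted p = 0.0074 by edgeR), and NPL, 184.9 kb from RGS16, had 0.79 (adjusted p = 0.046). FGFR4, 259.8 kb from RGS14, had -0.81 (adjusted p = 0.036), and ZBTB46, 241.1 kb from RGS19, had 1.31 (adjusted p = 0.013). Without RUNX1::ERG replicate 1, 0 of the tested neighbours were called by edgeR, and the adjusted p of these 4 was 0.057 for GLUL to 0.134 for NPL. FGFR4 and NPL also lost their call without RUNX1::ERG replicate 2 (adjusted p = 0.179 and 0.211), and NPL without empty vector replicate 1 (adjusted p = 0.056).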

How the data were processed

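Poly(A)-enriched RNA of K562 cells was sequenced as paired-end reads in 4 libraries, grouped by the vector and replicate named in the sample labels. The authors deposited raw counts per gene, listed by NCBI gene number, with hg19 as the genome. The submitters' processing notes name HISAT2 2.2.1 and featureCounts 2.0.1. The annotation, the strand setting and the handling of read pairs are not given in the sources used here, so genes that overlap or have near copies are uncertain. Even numbers made up 66.7% to 68.9% of the counts from 1 to 10, so counting intervals were also computed on halved counts. Biological replicates are stated without further detail. The p-values set a difference against the spread between these samples, which the tests estimate with information shared across genes.

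Symbols came from a RefSeq table of GRCh38.p14 (92.2% of 25702 genes matched), and GENCODE v44 on GRCh37 gave positions and exon lengths. The tests were run in R 4.3.3 with edgeR 4.0.16 (TMM scaling, filterByExpr, which kept 15394 genes, quasi-likelihood test, Benjamini-Hochberg adjustment, threshold 0.05). The standard error was the size of the log2 fold change divided by the square root of F. An exact permutation test of 2 libraries against 2 cannot go below p = 0.333 and was not used. Alternatives were other scalings and filters, DESeq2 1.42.0, limma 3.58.1 voom, a replicate block, halved counts and leaving out each library. The fit was tested on simulated data.

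The members and gene lists were chosen with earlier results of these data known. Named genes were the 10 members, other RGS genes with over 10 counts in a library, the called genes of each pathway list (all if 6 or fewer), called neighbours within 500 kb (at most 4), and RUNX1, ERG and ITGA2B. Others are marked as named after their values were seen, or are the genes nearest to a member, the genes behind a count of 5 or fewer, or marker genes.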

Additional observations from a re-analysis of the deposited data

How the results depend on the processing

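The direction and call of RGS10 held in 12 of 12 alternative fits, and those of RGS18 and RGS9 in 11 of 11. Under the filter of 10 or more counts per library, RGS18 and RGS9 could not be tested, so 1 member was called, 1 of them higher, and 0 other RGS genes. RGS3 made the number of members called lower 1 with no filter on low counts (log2 fold change -1.80, adjusted p = 0.00016), DESeq2 (-1.81, 0.041) and the replicate block (-1.53, 0.035), and over the fits that left out 1 library that number ran from 0 to 1. Signs near 0 turned. With 1 library left out, the log2 fold change ran from -0.36 to 0.12 for RGS12, from -0.044 to 0.37 for RGS14 and from -0.18 to 0.21 for RGS19. RGS12 turned at the loss of empty vector replicate 2, while RGS14 (-0.044 and -0.014) and RGS19 (-0.18 and -0.070) turned at that of empty vector replicate 1 or RUNX1::ERG replicate 1. RGS19 was also at -0.010 with DESeq2's size factors, -0.0091 with no filter and -0.012 with DESeq2. None of these passed the test. The share of RGS10 with the fusion was 73.9% by longest transcript. The causes were not tested.

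With no filter on low counts, 1 of 7 tested partners, 5 of 17 effectors, 1 of 18 modulators and 9 of 29 receptors were called. In that fit 7.38% of all tested genes were called. With the replicate block the calls were 1 of 7, 6 of 14, 1 of 17 and 10 of 22, beside 11.3% of all tested genes. Lower among these were 2 receptors with no filter, and 1 effector (ADCY7), 1 modulator and 3 receptors with the block. DESeq2 called 1 partner, 5 effectors and 1 modulator, beside 7.29% of the genes to which it gave an adjusted p. With 1 library left out the calls ran from 0 to 1 for partners, 1 to 3 for subunits, 3 to 5 for effectors, 0 to 1 for modulators, 3 to 8 for receptors and 0 to 5 for neighbours. A library left alone in its group was assumed to vary like the others.

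Over all genes, 1500 were called with no filter, 1194 by DESeq2, 286 to 1336 with 1 library left out and 1733 with the replicate block. The deviations of same-numbered libraries had r = 0.271 over 15394 genes, and no label ties a number to one culture or day. At 2 libraries per group and 59695387 or more counts, changes that stayed within 1 to 3 counts were not detectable.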
